A study of Mus musculus with 24 samples.

Results

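RNA bound to tagged ribosomes was compared between mouse kidneys taken 14 days after bilateral ischemia-reperfusion injury and kidneys taken after sham surgery. The members are 6 of the 24 libraries of the series, chosen by their labels alone: 3 day 14 bound libraries and 3 sham bound libraries, read across all genes. Of 40750 genes in the table, 13721 reached 1 RPKM (read counts scaled by transcript length and library size) in at least 3 of the 24 libraries and were tested.

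All mice were males of 8 to 10 weeks on a mixed background with the genotype Kim1-GCE+/-; EGFPL10a+/-. In the injured mice both renal pedicles were clamped for 20 minutes, and the sham mice had the same surgery without clamping. Tamoxifen was given 6 hours before and 24 hours after the surgery, and Cre driven by the Kim1 (Havcr1) promoter then switches on the tag, so that the tagged cells are those that used this promoter around the surgery and their offspring. The pull-down took EGFP-tagged ribosomal protein L10a out of whole-kidney homogenate with anti-GFP beads, and the unbound RNA is called total kidney in the labels. Day 2 and day 7 after injury completed the series, with 3 biological replicates at each time. Library values below are in RPKM and in the order of replicates 1, 2 and 3, and changes are log2 fold changes fitted by limma on log2 (RPKM + 0.5), given with their standard error (SE). This scale understates the change of genes near 0. The labels state biological replicates and do not say whether bound and unbound libraries of the same number came from 1 mouse.

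The proximal tubule reabsorbs most of the filtered sodium, phosphate, glucose and amino acids, fuels this with fatty acid oxidation, and is the segment most easily damaged by ischemia. Surviving tubule cells lose polarity, turn on Kim1, Sox9 and cell cycle inhibitors, divide and differentiate again. Cells that fail to do so are known to keep VCAM-1, chemokines and other NF-kB targets on, and to be found beside macrophages and matrix-forming fibroblasts.

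The depth of the 6 libraries, inferred from the spacing of low values, was 17.2 to 24.7 in units of 1e+06 reads, so 1 RPKM of a transcript of 1 kb stands for 17.2 to 24.7 reads. The 10 most abundant genes took 12.1% to 23.9% of the RPKM total. Day 14 replicate 3 stood apart: across genes its log2 values correlated at 0.897 and 0.893 with the other day 14 libraries, which correlated at 0.975 with each other. It held macrophage and stromal genes at the highest level of the 6. Sham replicate 3 correlated at 0.929 and 0.93 with the other sham libraries, which correlated at 0.972, and held collecting duct and podocyte genes at the highest level of the 6. Many list counts and medians that moved by more than 1.5 times without either library are given both ways, but not all of them.

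The tissue label was checked against marker genes. All 11 proximal tubule markers were present in both groups, with group means of 8.35 to 2373 RPKM at day 14 and 13.1 to 4811 RPKM in sham. Their mean was higher in bound than in unbound RNA for 4 of 11 markers at day 14 and for 3 of 11 in sham, so the bound fraction was not enriched for most of them. Slc34a1, the main phosphate transporter of the segment, averaged 749 ± 465 RPKM in day 14 bound RNA and 557 ± 41.7 RPKM in sham bound RNA (SD, n = 3 each), below the means of 1014 RPKM in day 14 unbound RNA and 1339 RPKM in sham unbound RNA. Markers of other cells were present too. The podocyte gene Nphs1 averaged 2.65 ± 0.555 RPKM in day 14 bound and 8.62 ± 7.63 RPKM in sham bound RNA (SD, n = 3 each), above its 0.847 RPKM in day 14 unbound and 0.562 RPKM in sham unbound RNA. The collecting duct water channel Aqp2 averaged 44.3 ± 13.6 RPKM in day 14 bound and 168 ± 162 RPKM in sham bound RNA, against 28 RPKM in day 14 unbound and 17.7 RPKM in sham unbound RNA. How much of the bound RNA came from tagged cells was not measured, and in bulk RNA a change in the number of cells of a type and a change in RNA per cell cannot be told apart.

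**Figure D1:**
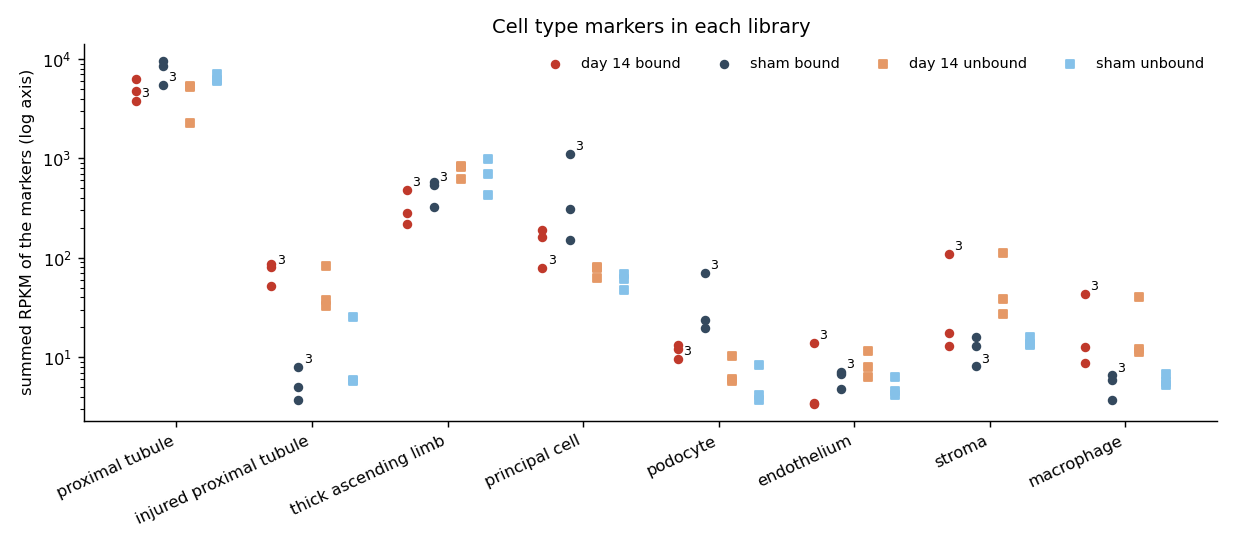
Summed RPKM (log axis) of the marker genes of 8 cell types in each library; circles are bound RNA, squares unbound RNA, and 3 marks the third bound replicate. The 4 injured proximal tubule markers sum to 52 to 86.3 RPKM in day 14 bound and 3.69 to 7.96 RPKM in sham bound libraries, and macrophage and stromal sums are highest in day 14 replicate 3.

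At day 14 the bound RNA still differed from sham. At an adjusted p under 0.05, 1824 genes differed, 13.3% of those tested: 1195 were higher at day 14 (8.71%) and 629 were lower (4.58%), and 1155 of them differed at least 2-fold. The fit counts the 24 libraries as independent, although bound and unbound libraries of the same number are taken as 1 mouse below. The call count also depends on which libraries set the spread. The median within-group SD on the log2 scale was 0.42 in day 14 bound and 0.377 in sham bound RNA, against 0.185 to 0.297 in the 4 unbound groups. Fitted on the 12 bound libraries alone, 154 genes were called (1.12%; 117 higher and 37 lower), every one of them also called with all 24; the share higher was 0.853%. Leaving out 1 of the 6 libraries at a time gave 788 to 2636 calls. The libraries of the 2 groups did not overlap for 3098 of all genes tested (22.6%) and for 1590 of those called. Statements on overlap below are to be read against that share, and the largest rises and falls were named only where groups did not overlap. A total of 148 genes (1.08%; 114 higher, 0.831%, and 34 lower, 0.248%) were called with all 24 libraries, with the 12 bound libraries and with each of the 6 libraries left out. These are named stable calls below, and the second adjusted p given for a gene is always that from the 12 bound libraries. The term covers these fits alone. With only the 6 libraries 21 genes were called, so most stable calls did not pass there.

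The median log2 fold of all genes was 0.18, and 0.01 after the libraries were rescaled by median ratios, so list medians are to be read against 0.18. Every list count below is to be read against the shares of all genes tested, 8.71% higher and 4.58% lower. Without day 14 replicate 3 these shares were 10.2% and 8.97%. The share of higher genes among the calls was 65.5% as deposited, 40.7% after median-ratio rescaling, 46% after quantile normalization and 53.3% without day 14 replicate 3.

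Genes of the injured tubule were among the leading rises. Havcr1, the phosphatidylserine receptor Kim1 whose promoter also drives the tag, stood at 53.6, 33.7 and 21.7 RPKM at day 14, against 1.51, 1.49 and 5.61 RPKM in sham. The groups did not overlap, and the log2 fold was 3.57 ± 0.61 (adjusted p = 0.00159 and 0.0108). Spp1, which encodes the secreted matrix protein osteopontin, stood at 2117, 1210.3 and 2786 RPKM at day 14, against 193, 206 and 283 RPKM in sham, a log2 fold of 3.1 ± 0.45 (adjusted p = 0.000435 and 0.00898). Krt20, a keratin of injured tubules, was at 17.6, 7.14 and 24.1 RPKM at day 14, against 2.26, 0.626 and 1.07 RPKM in sham (log2 fold 3.15 ± 0.52, adjusted p = 0.00123 and 0.0147). The lowest day 14 library was above the highest sham library for each of these genes. S100a6, a calcium-binding protein, was at 569.8, 333 and 510.4 RPKM at day 14, against 50.8, 46.6 and 84.3 RPKM in sham (log2 fold 2.96 ± 0.53, adjusted p = 0.00204 and 0.0335). Sox9, the transcription factor of regenerating tubule cells, was low in absolute level but higher at day 14, with 3.79, 2.03 and 9.06 RPKM, against 0.253, 0.823 and 0.226 RPKM in sham (log2 fold 2.39 ± 0.50, adjusted p = 0.00522 and 0.0353). Cd44, the hyaluronan receptor, and Timp1, an inhibitor of metalloproteinases, were further stable rises with log2 folds of 2.55 and 3.69; Timp1 was at 10.3, 6.7 and 60.7 RPKM at day 14, with the third library far above the others, against 2.31, 0.194 and 0.639 RPKM in sham.

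Of 35 tested genes on a tubule injury list, 11 rose, 1 fell and 23 did not pass, with a median log2 fold of 0.59 beside 0.18 over all genes; 9 of the rises were stable. Without day 14 replicate 3 the list's median was 0.21, beside 0.02 over all genes in that fit, and 11 rose and 2 fell; without sham replicate 3 it was 0.96, beside 0.24 over all genes. Lcn2 and Clu were among the members that did not pass the test. Lcn2, an iron-siderophore carrier that peaks early, was at 19.9, 11.6 and 58.2 RPKM at day 14, against 13.4, 9.36 and 33.6 RPKM in sham, with overlapping groups (log2 fold 0.54 ± 0.65, adjusted p = 0.599), and Clu, the chaperone clusterin, averaged 89.6 ± 58.9 RPKM at day 14 and 70.2 ± 32.2 RPKM in sham (SD, n = 3 each; adjusted p = 0.701). Krt7 was the member that fell, with a log2 fold of -1.11 ± 0.35 (adjusted p = 0.0414 and 0.165).

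**Figure D2:**
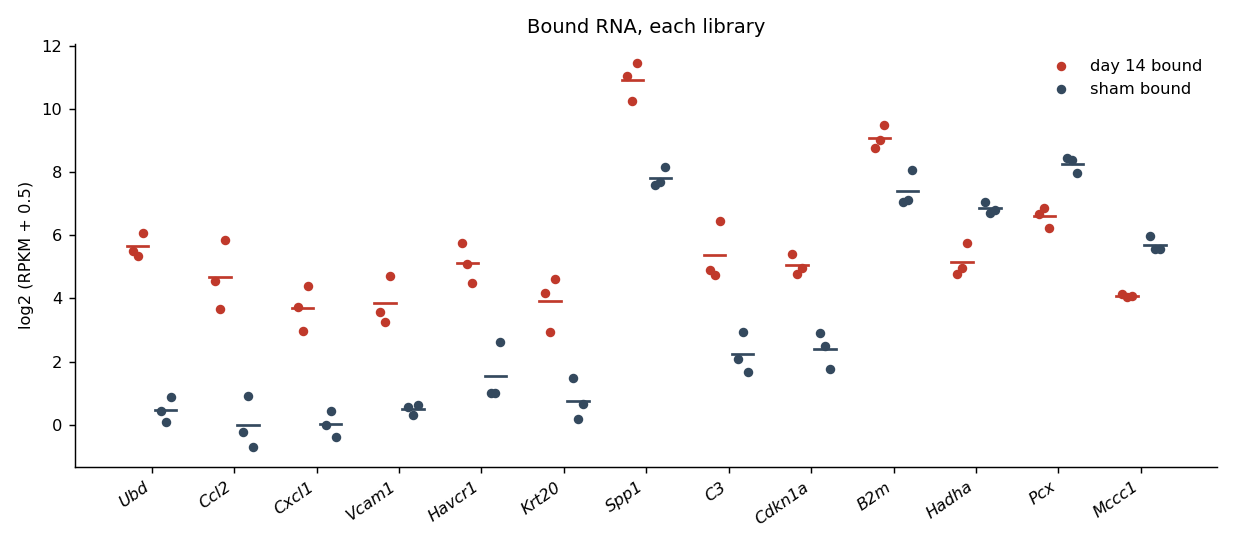
Expression of 13 stable calls in each bound library as log2 (RPKM + 0.5), day 14 left of sham; points are libraries and bars are group means. In all 13 genes the 3 day 14 libraries lie apart from the 3 sham libraries, above them for Ubd to B2m and below them for Hadha to Mccc1.

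Chemokines, and the adhesion and ubiquitin-like genes that NF-kB is known to turn on, were among the largest rises. Ubd, which encodes the ubiquitin-like modifier FAT10 and is induced by tumor necrosis factor and interferon-gamma, was at 45.1, 40.3 and 66.6 RPKM at day 14, against 0.842, 0.555 and 1.35 RPKM in sham. Its log2 fold of 5.18 ± 0.55 was the largest among named genes with at least 5 RPKM (adjusted p = 2.72e-05 and 0.000297), and the 3 day 14 libraries were close together. Ccl2, which draws monocytes through CCR2, was at 22.8, 12.1 and 57.2 RPKM at day 14, against 0.345, 1.36 and 0.107 RPKM in sham (log2 fold 4.71 ± 0.70, adjusted p = 0.000513 and 0.00853). Cxcl1, which draws neutrophils through CXCR2, was at 12.9, 7.24 and 20.6 RPKM at day 14, against 0.503, 0.859 and 0.255 RPKM in sham (log2 fold 3.68 ± 0.44, adjusted p = 8.49e-05 and 0.0013). Cxcl5, another CXCR2 ligand, was at 3.58, 2.36 and 5.33 RPKM at day 14 and nearly absent from sham, at 0.0263, 0.182 and 0.0245 RPKM (log2 fold 2.83 ± 0.48, adjusted p = 0.00155 and 0.00853). Cxcl16, a membrane-bound chemokine for T cells, was at 29.1, 37.1 and 58.2 RPKM at day 14, against 7.44, 14.2 and 12.8 RPKM in sham, where it was already well expressed (log2 fold 1.8 ± 0.33, adjusted p = 0.00249 and 0.0344). Il1f6, which encodes the epithelial cytokine IL-36 alpha, was at 8.85, 1.4 and 6.43 RPKM at day 14, against 0.197, 0 and 0.0459 RPKM in sham (log2 fold 3.11 ± 0.62, adjusted p = 0.00387 and 0.0135). Vcam1, the ligand of leukocyte integrin VLA-4, was at 11.3, 9.12 and 25.8 RPKM at day 14, against a narrow 0.987, 0.748 and 1.05 RPKM in sham (log2 fold 3.34 ± 0.55, adjusted p = 0.00123 and 0.00898).

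Of 31 tested chemokines and cytokines, 16 rose and none fell (median log2 fold 1.48). The 5 stable rises were Ccl2, Cxcl1, Cxcl5, Cxcl16 and Il1f6. Without day 14 replicate 3, 6 members were called and the median was 0.97, and without sham replicate 3 it was 9 (median 1.55). The monocyte chemokine Ccl12 showed what that library adds: it was at 6.17, 6.2 and 112 RPKM at day 14, against 1.62, 1.36 and 0.151 RPKM in sham, and its adjusted p was 0.0143 with all 24 and 0.0643 with the 12 bound libraries. Of 19 genes on a list for tubule cells that fail to repair, 10 rose and none fell (median 1.30, and 0.85 without day 14 replicate 3), 6 of them stable: Cxcl1, Ccl2, Vcam1, Cdkn1a, Cp and Tgfb2. Tgfb2, the TGF-beta isoform that dominates in epithelium, was at 4.27, 2.68 and 5.12 RPKM at day 14, against 0.166, 1.4 and 0.489 RPKM in sham (log2 fold 2.03 ± 0.43, adjusted p = 0.00542 and 0.0339). Cp, the copper-carrying ferroxidase ceruloplasmin, was at 11.7, 7.13 and 23.4 RPKM at day 14, against 2.52, 2.92 and 1.99 RPKM in sham (log2 fold 2.14 ± 0.43, adjusted p = 0.00378 and 0.0264).

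Some genes of the NF-kB machinery itself rose, none of them stable. Of 29 tested genes of the NF-kB and TNF pathway 5 rose and none fell (median 0.57), beside 8.71% of all genes higher, and none of them was called with the 12 bound libraries. Without day 14 replicate 3, 1 was higher and 1 lower (median 0.21), and without sham replicate 3, 3 were higher and none lower. The members that rose were Tnfrsf12a, the TWEAK receptor (log2 fold 1.7, adjusted p = 0.0097 and 0.0553), the inhibitor Nfkbie (1.49, 0.0212 and 0.0643), the subunit Relb (1.39, 0.0351 and 0.116), the cofactor Bcl3 (1.38, 0.0425 and 0.0857) and the receptor Tlr2 (1.87, 0.0464 and 0.123). The feedback inhibitor Nfkbia was at 85.6, 45.8 and 209 RPKM at day 14, against 84, 102 and 99.4 RPKM in sham, and Tnfaip3, another brake on the pathway, was at 1.03, 0.771 and 3.99 RPKM at day 14, against 0.796, 0.763 and 0.690 RPKM in sham. The groups overlapped for both, with day 14 replicate 3 the highest library (adjusted p = 0.985 and 0.269).

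Promoter windows of the genes that rose were read because several of them are textbook NF-kB or interferon targets. The leading rises and the risen members of the NF-kB, chemokine, MHC and interferon lists came to 44 genes, of which 31 matched RefSeq promoter windows of GRCm38.p6 reaching from 250 bases before to 50 bases after the start. On either strand, the NF-kB motif (GGGA, any base, TT, any base, CC) occurred in the windows of 8 of these genes (25.8%), against 1.38% of all 27025 genes in the promoter table. The interferon-stimulated response element, GAAA repeated after a gap of 2 bases, occurred in 5 genes (16.1%), against 3.99% of all genes, and the AP-1 motif TGANTCA in 6 genes (19.4%), against 8.97%. Each motif was counted separately, and no match overlaps another in the windows shown. The genes with an NF-kB match were Cxcl1, B2m, H2-Aa, Cxcl10, Cxcl2, Bcl3, Csf1 and Tlr2. The searched genes were taken in part from lists of known NF-kB and interferon targets, so the choice itself favours these motifs and the shares are no evidence of an excess among the genes that rose. A match describes the letters of the window and shows no binding. The 250 bases before the start of the 4 with the smallest p follow, 5′ to 3′ on the gene's own strand, with every match in capitals.
Cxcl1, chr5:90890995-90891244, plus strand: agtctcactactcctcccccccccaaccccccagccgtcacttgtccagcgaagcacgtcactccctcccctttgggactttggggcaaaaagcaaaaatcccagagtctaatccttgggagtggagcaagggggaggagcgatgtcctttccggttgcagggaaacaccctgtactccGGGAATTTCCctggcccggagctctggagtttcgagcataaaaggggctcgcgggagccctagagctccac
B2m, chr2:122147437-122147686, plus strand: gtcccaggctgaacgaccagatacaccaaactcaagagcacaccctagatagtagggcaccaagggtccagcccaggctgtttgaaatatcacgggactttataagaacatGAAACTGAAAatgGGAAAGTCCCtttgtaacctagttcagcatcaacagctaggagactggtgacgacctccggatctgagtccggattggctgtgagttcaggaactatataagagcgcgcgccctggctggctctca
H2-Aa, chr17:34287824-34288073, minus strand: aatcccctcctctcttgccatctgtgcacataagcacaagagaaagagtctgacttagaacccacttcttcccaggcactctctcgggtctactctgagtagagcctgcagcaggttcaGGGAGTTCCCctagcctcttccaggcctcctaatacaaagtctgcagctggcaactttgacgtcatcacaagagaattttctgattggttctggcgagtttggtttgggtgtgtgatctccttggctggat
Cxcl10, chr5:92348890-92349139, minus strand: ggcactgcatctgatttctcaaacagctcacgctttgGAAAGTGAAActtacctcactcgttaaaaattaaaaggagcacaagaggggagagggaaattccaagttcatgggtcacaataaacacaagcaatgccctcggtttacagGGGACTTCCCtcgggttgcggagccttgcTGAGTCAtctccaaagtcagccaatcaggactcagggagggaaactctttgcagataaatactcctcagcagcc

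In the Cxcl1 window the capitals mark 1 NF-kB match, GGGAATTTCC, 71 bases before the start. In that of B2m they mark a response element, GAAACTGAAA, 139 bases before the start and just upstream of an NF-kB match at 126 bases. The H2-Aa window holds 1 NF-kB match, 131 bases before the start. The Cxcl10 window holds matches to all 3 motifs: the response element at 213 bases, NF-kB at 103 bases and AP-1 at 74 bases.

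Antigen presentation genes rose, most of them of class II. B2m, the light chain of every class I molecule, was at 431, 517 and 725 RPKM at day 14, against 133, 138 and 265 RPKM in sham (log2 fold 1.68 ± 0.32, adjusted p = 0.00291 and 0.0438). H2-Ab1, a class II beta chain, was at 121, 115 and 790.3 RPKM at day 14, against 32.2, 37.7 and 26.9 RPKM in sham (log2 fold 2.78 ± 0.57, adjusted p = 0.00477 and 0.0459), so that even the lower day 14 libraries were above every sham library. H2-DMa and H2-DMb2, which load peptides onto class II, were the other stable class II rises. H2-DMa was at 22.8, 18.7 and 131 RPKM at day 14, against 5.39, 5.98 and 2.47 RPKM in sham (log2 fold 3.0 ± 0.56). H2-DMb2 was at 3.49, 3.95 and 12.5 RPKM at day 14, against 0.255, 0.302 and 0.356 RPKM in sham (log2 fold 2.94 ± 0.44, adjusted p = 0.000605 and 0.00898). Cd74, the class II invariant chain, was at 688, 548 and 2952 RPKM at day 14, against 199, 253 and 138 RPKM in sham (log2 fold 2.44 ± 0.55, adjusted p = 0.00811 and 0.0611). Of 12 tested class II genes 8 rose and none fell (median 2.48, and 1.38 without day 14 replicate 3). Of 20 class I and processing genes 1 rose and none fell (median 0.64, and 0.28 without that library), below the 8.71% of all genes higher. Without sham replicate 3, 5 were called, beside 1771 of 13721 genes higher in that fit.

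Interferon-stimulated genes as a group were near the background: 4 of 42 rose and none fell, and without day 14 replicate 3 the median of 0.55 was 0.05, with 2 called. Those that rose were Ubd, Cxcl10, Bst2 and Iigp1. Cxcl10, a T cell chemokine, was at 7.45, 5.89 and 14.1 RPKM at day 14, against 0.516, 1.19 and 2.32 RPKM in sham (log2 fold 2.42 ± 0.58, adjusted p = 0.0108 and 0.0459); without sham replicate 1 its adjusted p was 0.0555. Isg15, a ubiquitin-like interferon target, was at 9.77, 9.32 and 28.5 RPKM at day 14, against 6.34, 7.24 and 14.3 RPKM in sham, with overlapping groups (adjusted p = 0.362). Complement held 1 stable rise. C3, the central component, was at 29.2, 26.2 and 87 RPKM at day 14, against 3.72, 7.13 and 2.69 RPKM in sham (log2 fold 3.13 ± 0.44, adjusted p = 0.000338 and 0.00853). Of 24 complement genes 7 rose and none fell (median 1.31), but 1 was called without day 14 replicate 3 (median 0.53). C1s1, a protease of the classical pathway, was at 4.36, 2.71 and 39.1 RPKM at day 14, against 1.5, 1.53 and 1.43 RPKM in sham (adjusted p = 0.0284, and 0.111 without that library). Of 15 acute phase genes 3 rose, 1 of them stable (Cp), with a median of 0.65, and 0.25 without day 14 replicate 3. Defb36, an epithelial beta-defensin, had the smallest p with Ubd. It was at 13.1, 8.95 and 10.2 RPKM at day 14, against 0.465, 0.0920 and 0.0866 RPKM in sham (log2 fold 4.0 ± 0.42, adjusted p = 2.72e-05 and 0.000297).

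Some targets of p53 rose, among them the main inhibitor of the cell cycle in this pathway, and few genes of the cycle itself passed the test. Cdkn1a, the cyclin-dependent kinase inhibitor p21, was at 41.5, 26.7 and 30.8 RPKM at day 14, against 6.92, 5.15 and 2.9 RPKM in sham (log2 fold 2.66 ± 0.51, adjusted p = 0.00309 and 0.0279). Phlda3, a p53-induced inhibitor of AKT, was at 20.6, 14.7 and 23.4 RPKM at day 14, against 4.0, 2.85 and 1.01 RPKM in sham (log2 fold 2.8 ± 0.40, adjusted p = 0.00037 and 0.00854). Pmaip1, the pro-apoptotic protein NOXA, was at 5.91, 6.62 and 8.94 RPKM at day 14, against 1.47, 1.07 and 2.02 RPKM in sham (log2 fold 1.93 ± 0.39, adjusted p = 0.00408 and 0.0339). The day 14 libraries were close together for each of these 3 genes. The sham libraries were more spread, from 1.01 to 4.0 RPKM for Phlda3 and from 2.9 to 6.92 RPKM for Cdkn1a. Mdm2, the ubiquitin ligase of p53 and itself a target, was at 8.45, 6.39 and 10.1 RPKM at day 14, against 6.67, 7.37 and 6.21 RPKM in sham (adjusted p = 0.462). Gadd45a and Btg2, targets that also slow the cycle, had log2 folds of 0.20 and -0.39 (adjusted p = 0.716 and 0.544 with all 24 libraries). Of 25 p53 targets 7 rose, 3 of them stable, none fell and 18 did not pass (median 0.36), beside 8.71% of all genes higher. Mki67, carried by dividing cells, was at 0.950, 0.288 and 2.08 RPKM at day 14, against 0.294, 0.346 and 0.712 RPKM in sham (log2 fold 0.62 ± 0.39, adjusted p = 0.287). Foxm1, a driver of mitosis, was at 0.345, 0.190 and 0.548 RPKM at day 14, against 0.151, 0.517 and 0.701 RPKM in sham (adjusted p = 0.849). Of 33 genes of G1 and S phase none rose and 1 fell (Ccnd1, log2 fold -0.85, adjusted p = 0.0474 and 0.139), and of 33 of G2 and M phase 3 rose and none fell, none stable. Both counts are near or below the shares of all genes, 8.71% higher and 4.58% lower. Of the G1 and S phase genes 4 fell without day 14 replicate 3 and none without sham replicate 3. The G2 and M phase median was 0.56, with 30 of 33 members above 0, against 8415 of 13721 genes tested. It was 0.21 without day 14 replicate 3 and 0.76 without sham replicate 3. At day 2 the bound means of Mki67 and Foxm1 were 9.93 and 6.69 RPKM.

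Matrix and macrophage genes were by far the highest in 1 day 14 library. Col1a1, the main collagen of scar tissue, was at 21.7, 13.2 and 191 RPKM at day 14, against 4.02, 3.24 and 2.36 RPKM in sham (log2 fold 3.41 ± 0.82, adjusted p = 0.0116 and 0.0741). Col3a1 was at 10.2, 5.57 and 172 RPKM at day 14, against 1.77, 1.27 and 0.996 RPKM in sham (log2 fold 3.62 ± 0.89, adjusted p = 0.0127 and 0.0833). Fn1, fibronectin, was at 8.27, 4.0 and 45.4 RPKM at day 14, against 0.705, 1.59 and 0.965 RPKM in sham (log2 fold 2.98 ± 0.68, adjusted p = 0.00835 and 0.069). All 3 day 14 libraries were above all sham libraries, and replicate 3 was by far the highest. Mmp2, a gelatinase, was a stable rise, with 4.85, 3.7 and 36.5 RPKM at day 14, against 0.172, 1.13 and 0.240 RPKM in sham (log2 fold 3.33 ± 0.64, adjusted p = 0.00314 and 0.0476). Of 36 matrix genes 12 rose and none fell (median 1.30), and 4 were called without day 14 replicate 3 (median 0.51) and 7 without sham replicate 3. Of 23 matrix-remodelling genes 8 rose and none fell (median 1.24), and 3 were called without day 14 replicate 3 (median 0.68).

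Lyz2, the lysozyme of macrophages and granulocytes, was at 68.8, 50.9 and 1112 RPKM at day 14, against 14.5, 14.6 and 4.8 RPKM in sham (log2 fold 3.9 ± 0.87, adjusted p = 0.00798 and 0.0618). Aif1, a macrophage calcium-binding protein, was at 8.04, 5.38 and 54.3 RPKM at day 14, against 1.88, 1.49 and 0.926 RPKM in sham (log2 fold 2.89 ± 0.64, adjusted p = 0.00782 and 0.0619). Cd68, a lysosomal protein of macrophages, was at 3.47, 2.23 and 36.8 RPKM at day 14, against 2.56, 2.09 and 0.419 RPKM in sham, with overlapping groups (adjusted p = 0.0736). Of 23 macrophage genes 13 rose and none fell (median 2.19), none of them with the 12 bound libraries, 3 were called without day 14 replicate 3 (median 1.04), and 6 without sham replicate 3. The defining pair Adgre1 and Csf1r summed to 12.7, 8.67 and 43.4 RPKM at day 14, against 3.70, 5.94 and 6.58 RPKM in sham. The stromal pair Pdgfrb and Dcn summed to 17.4, 12.9 and 109.7 RPKM at day 14, against 12.9, 16.2 and 8.08 RPKM in sham. Both sums were highest in day 14 replicate 3, like the matrix, complement and class II values above and most of the chemokine values. In day 14 replicates 1 and 2 the stromal sum was within or just above the sham range. In the same libraries the macrophage sum, Col1a1 and C3 were above every sham library. The part of these cells in those results was not tested. The T cell receptor subunit Cd3e was a stable rise, with 0.957, 1.69 and 3.96 RPKM at day 14, against 0.0910, 0.0600 and 0 RPKM in sham (log2 fold 2.14 ± 0.49). Of 15 tested lymphocyte genes 2 rose and none fell, beside 8.71% of all genes higher, and 11 were above 0. Their median was 1.08, and 0.43 without day 14 replicate 3. The lymphocyte genes Cd8a and Cd79b had log2 folds of -0.06 and -0.71. Retnla, a gene of alternatively activated macrophages, was a stable rise too, with 4.91, 12.5 and 102 RPKM at day 14, against 0.0729, 1.15 and 0 RPKM in sham, and so was the platelet chemokine Pf4, with 6.14, 4.55 and 51.5 RPKM at day 14, against 0.669, 1.54 and 0.0692 RPKM in sham; the third day 14 library was far above the others for both. None of 6 tested neutrophil genes was called, and Ly6g was at 0 in all 3 sham bound libraries.

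**Figure D3:**
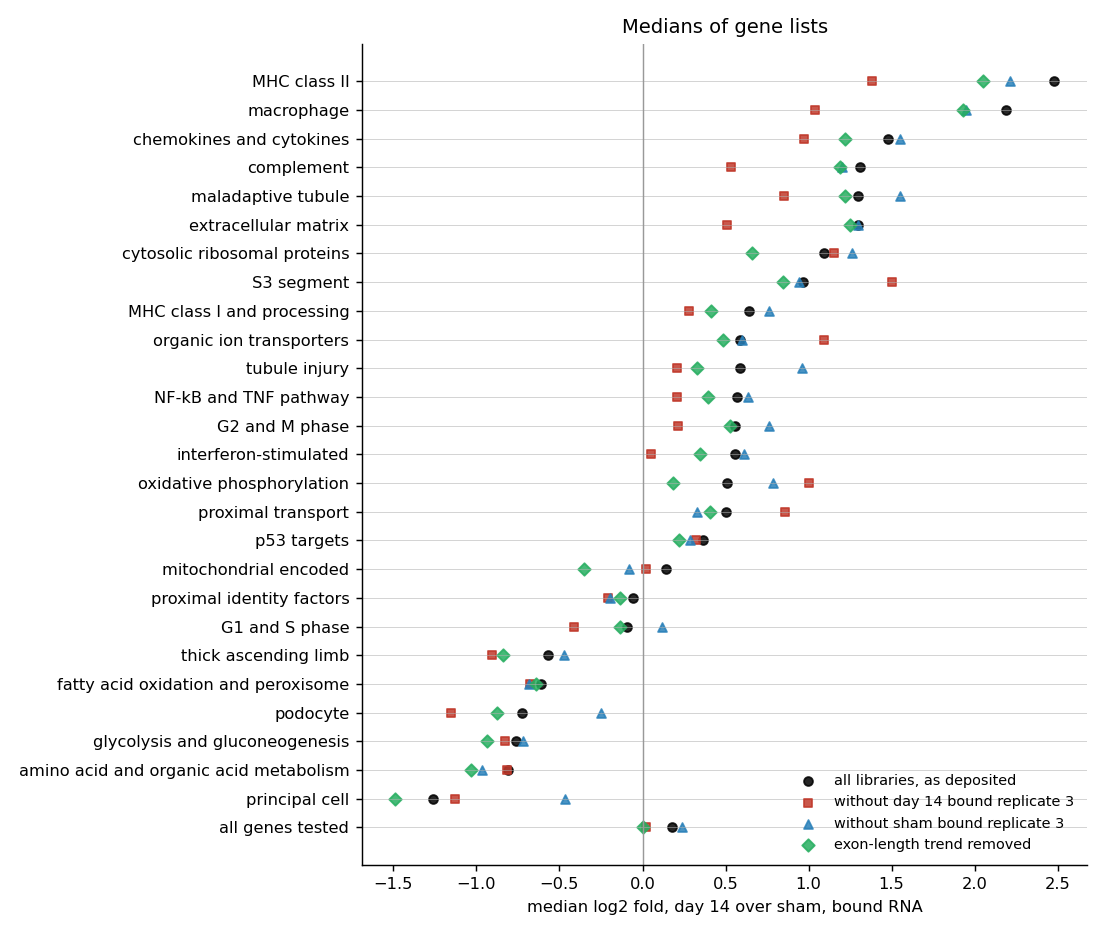
Median log2 fold of 26 gene lists and of all genes tested, day 14 over sham in bound RNA, with all libraries, without day 14 replicate 3, without sham replicate 3, and with each library's trend with exon length removed. Class II, macrophage, matrix and complement medians are lower without day 14 replicate 3, the principal cell median is nearer 0 without sham replicate 3, and fatty acid, glycolysis and amino acid medians lie below 0 in all 4.

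Several genes of fuel use fell. Hadha, a subunit of the mitochondrial trifunctional protein of fatty acid oxidation, was at 26.7, 30.8 and 53.1 RPKM at day 14, against 133, 105 and 110.0 RPKM in sham (log2 fold -1.7 ± 0.24, adjusted p = 0.000338 and 0.0264). Hacl1, the peroxisomal enzyme that shortens branched fatty acids, was at 5.45, 5.35 and 10.2 RPKM at day 14, against 29.7, 27.4 and 20.6 RPKM in sham (log2 fold -1.86 ± 0.25, adjusted p = 0.000314 and 0.0154). Acadm, the medium-chain acyl-CoA dehydrogenase, was at 374, 248 and 178 RPKM at day 14, against 847, 558 and 709 RPKM in sham (log2 fold -1.45 ± 0.35, adjusted p = 0.0118 and 0.0866). The groups did not overlap for these 3 genes. Cpt1a, the carnitine transferase that gates entry of fatty acids into mitochondria, was at 52.4, 67.1 and 63 RPKM at day 14, against 71.4, 82.5 and 56.3 RPKM in sham (adjusted p = 0.564). Of 41 genes of fatty acid oxidation and the peroxisome none rose and 12 fell (median -0.61), 1 of them stable (Hadha). Hacl1 is not on this list and was a stable fall too. Ppargc1a, the coactivator of mitochondrial biogenesis, was at 10.6, 11.2 and 17.3 RPKM at day 14, against 30.9, 40.7 and 21.4 RPKM in sham (log2 fold -1.2 ± 0.27, adjusted p = 0.00782 and 0.0667).

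Genes of sugar and amino acid metabolism fell as well. Pcx, pyruvate carboxylase, which starts gluconeogenesis, was at 101, 116 and 75.2 RPKM at day 14, against 348, 335 and 249.7 RPKM in sham (log2 fold -1.68 ± 0.37, adjusted p = 0.00678 and 0.0258). Pck1, the cytosolic gluconeogenic enzyme of the proximal tubule, was at 293, 385 and 409 RPKM at day 14, against 1576, 810.3 and 617 RPKM in sham (log2 fold -1.36 ± 0.44, adjusted p = 0.0464 and 0.123). Phosphofructokinase, which commits sugar to glycolysis, fell in 2 isoforms. Pfkm was at 15.5, 16.9 and 23.6 RPKM at day 14, against 44.8, 54.3 and 57.6 RPKM in sham (log2 fold -1.48 ± 0.26, adjusted p = 0.00192 and 0.0476). Pfkl was at 21.1, 15.6 and 29.8 RPKM at day 14, against 43, 52 and 62.5 RPKM in sham (log2 fold -1.26 ± 0.22, adjusted p = 0.00176 and 0.0438). Of 29 genes of glycolysis and gluconeogenesis 1 rose and 11 fell (median -0.76), with Pcx, Pfkm and Pfkl stable. Of 44 genes of amino acid and organic acid metabolism 1 rose and 15 fell (median -0.81). The stable one was Mccc1, a leucine-catabolizing carboxylase, at 17, 16.1 and 16.3 RPKM at day 14, against 61.8, 46.8 and 46.7 RPKM in sham (log2 fold -1.61 ± 0.29, adjusted p = 0.00222 and 0.0339). Kyat3, a kynurenine aminotransferase that is not on this list, was a stable fall too, at 24.8, 21 and 16 RPKM at day 14, against 87.2, 95.2 and 83.5 RPKM in sham (log2 fold -2.1 ± 0.33, adjusted p = 0.000937 and 0.0147). The medians of these 3 metabolic lists were between -0.61 and -1.03 under the settings drawn in the plot of list medians.

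Nuclear-encoded respiratory chain genes split in direction. Of 39, 12 rose and 6 fell (median 0.51), none with the 12 bound libraries. Without day 14 replicate 3, 21 rose and 6 fell (median 1.0), without sham replicate 3, 18 rose and 7 fell (median 0.78), and after median-ratio rescaling 5 rose and 6 fell (median 0.31). The falls included subunits that carry the electron-transferring cofactors. Sdha, the flavoprotein of complex II, was at 192, 210.4 and 247 RPKM at day 14, against 988, 897 and 775 RPKM in sham (log2 fold -2.03 ± 0.38, adjusted p = 0.00265 and 0.0596). Ndufs1, the largest subunit of complex I, was at 28.6, 29.9 and 37.8 RPKM at day 14, against 93.6, 69.8 and 96.4 RPKM in sham (log2 fold -1.41 ± 0.27, adjusted p = 0.00309 and 0.0614). The rises included small accessory subunits. Ndufa1 was at 2550.4, 2665 and 1036 RPKM at day 14, against 441, 505 and 704 RPKM in sham (log2 fold 1.83 ± 0.38, adjusted p = 0.00509 and 0.0789), and Uqcrq of complex III had a log2 fold of 1.6 (adjusted p = 0.0113 and 0.104). None of the 9 genes encoded in mitochondrial DNA was called. Their median of 0.14 was -0.06 after median-ratio rescaling, 0.02 without day 14 replicate 3 and -0.08 without sham replicate 3.

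Cytosolic ribosomal protein genes rose together. Of 41 tested, 27 rose and none fell (median 1.09), 2 of them stable. Rps19, mutated in Diamond-Blackfan anemia in humans, was at 64.9, 50.8 and 59.1 RPKM at day 14, against 14.8, 17.6 and 17 RPKM in sham (log2 fold 1.79 ± 0.28, adjusted p = 0.000805 and 0.0335). Rps23, which sits in the decoding center, was at 3.51, 3.09 and 3.83 RPKM at day 14, against 0.980, 1.03 and 0.483 RPKM in sham (log2 fold 1.6 ± 0.31, adjusted p = 0.00357 and 0.0459). These low levels of abundant mRNAs are uncertain, because reads shared with the many processed pseudogenes of this family may not have been counted. In unbound RNA the mean of Rps19 was 63.6 RPKM at day 14 and 57.6 RPKM in sham, so the sham bound libraries were the low ones.

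Transcript length moved with both of these results. Genes were put into 10 equal bins by exon length. In the bin of the shortest (median 521 bases) the median log2 fold was 0.51, with 223 genes higher and 14 lower, and in the bin of the longest (median 11590.5 bases) it was -0.003, with 41 higher and 80 lower. In unbound RNA the medians ran the other way, at 0.13 in the shortest and 0.34 in the longest bin. With each library's trend with exon length removed, an alternative chosen after the data were seen, 737 genes were higher (5.37%) and 1051 lower (7.66%), 5 respiratory chain genes rose and 7 fell, and 19 ribosomal protein genes rose (median 0.66). Rps19 then had a log2 fold of 1.69 (adjusted p = 0.000813), Sdha one of -2.16 (adjusted p = 0.00354) and Ndufa1 one of 1.31 (adjusted p = 0.0116). The part of transcript length in these results was otherwise not tested.

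No listed transport gene of the proximal tubule fell. Slc5a2, the glucose carrier SGLT2 of the first segment, was at 15.9, 37.6 and 8.47 RPKM at day 14, against 16.2, 21.9 and 13.3 RPKM in sham (log2 fold 0.04 ± 0.40, adjusted p = 0.961), and its sign was negative after either rescaling. Slc34a1 was at 579.9, 1275 and 393 RPKM at day 14, against 605, 528 and 538 RPKM in sham, with replicate 2 the only day 14 library above all sham libraries (adjusted p = 0.696). Lrp2, the endocytic receptor megalin, was at 27.4, 40.3 and 22.3 RPKM at day 14, against 40.3, 62.3 and 48.8 RPKM in sham (log2 fold -0.76 ± 0.34, adjusted p = 0.138). Hnf4a, the transcription factor of proximal identity, was at 135, 136 and 97 RPKM at day 14, against 171, 229 and 94.9 RPKM in sham (adjusted p = 0.462). Of 32 transport genes 4 rose and none fell (median 0.50), and 11 were called without day 14 replicate 3 (median 0.86) and 2 without sham replicate 3 (median 0.33). Of 26 organic ion transporters 2 rose and none fell (median 0.59), near the 8.71% of all genes higher. Without day 14 replicate 3, 13 were called (median 1.09), beside 10.2% of all genes higher in that fit, and without sham replicate 3 it was 1. Of 20 proximal identity factors none rose and 3 fell: Ppargc1a, Esrrb and Nr1h4.

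The S3 segment is the straight part of the tubule, which ischemia hits hardest, and a few of its genes rose. Kap, the androgen-regulated kidney protein and one of the most abundant mRNAs of the male mouse kidney, was at 44318, 33832 and 10249 RPKM at day 14, against 6091, 4206 and 2579 RPKM in sham (log2 fold 2.62 ± 0.59, adjusted p = 0.00834 and 0.0836). Its mean in unbound RNA was 24255 RPKM at day 14 and 21857 RPKM in sham. Slc7a12, an amino acid transporter, was at 71.4, 27.9 and 12.1 RPKM at day 14, against 3.65, 7.89 and 4.45 RPKM in sham (log2 fold 2.41 ± 0.56, adjusted p = 0.00956 and 0.0789). Of 16 S3 genes 3 rose and none fell (median 0.97), and 12 were called without day 14 replicate 3 (median 1.5), beside 10.2% of all genes higher and 8.97% lower in that fit. Of 12 genes of the S1 segment none was called (median 0.04, -0.15 after median-ratio rescaling and 0.45 without day 14 replicate 3). Outside the S1 and S3 lists, S100g, the calcium-binding protein calbindin-D9k, was a stable rise with 1164, 1326 and 1533 RPKM at day 14, against 337, 310.0 and 377 RPKM in sham (log2 fold 1.97 ± 0.36, adjusted p = 0.00242 and 0.0476).

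Some markers of the distal nephron and the glomerulus fell, in part through 1 sham library. Clic3, a chloride channel protein of the collecting duct, was at 62.9, 43.5 and 35.2 RPKM at day 14, against 139.9, 182 and 767 RPKM in sham (log2 fold -2.54 ± 0.50, adjusted p = 0.00372 and 0.059; without sham replicate 3 the log2 fold was -1.79). Slc14a2, the urea transporter of the inner medulla, was at 12.9, 4.68 and 2.79 RPKM at day 14, against 16.8, 23 and 447 RPKM in sham (log2 fold -3.21 ± 0.83, adjusted p = 0.0157 and 0.098). Without sham replicate 3 its log2 fold was -1.72 (adjusted p = 0.0484). Pvalb, parvalbumin of the early distal convoluted tubule, was at 7.19, 6.72 and 6.52 RPKM at day 14, against 22.2, 47.2 and 37.3 RPKM in sham (log2 fold -2.24 ± 0.62, adjusted p = 0.0221 and 0.0335). It was not a stable call: its adjusted p was 0.0594 without day 14 replicate 1, 0.0527 without day 14 replicate 2 and 0.0831 without sham replicate 2. Ren1, renin of the juxtaglomerular cells, was at 11.3, 10.6 and 28.1 RPKM at day 14, against 69.3, 60.2 and 87.5 RPKM in sham (log2 fold -2.21 ± 0.55, adjusted p = 0.0137 and 0.0701). The groups did not overlap for any of the 4, which was a condition for naming them among the largest falls. Umod, uromodulin of the thick ascending limb, was at 264, 205 and 452 RPKM at day 14, against 302, 551 and 511 RPKM in sham, and did overlap (adjusted p = 0.268). Of 12 principal cell genes none rose and 2 fell (median -1.26, and -0.46 without sham replicate 3, where 1 fell; 1 also fell without day 14 replicate 3). Of 14 thick ascending limb genes 4 fell (median -0.57, and -0.91 without day 14 replicate 3; without sham replicate 3, 2 fell). Of 12 distal convoluted tubule genes 2 fell (median -0.30), 4 without day 14 replicate 3 (median -0.55) and 1 without sham replicate 3 (median -0.12). Of 14 intercalated cell genes 1 fell (median -0.48), and 5 without day 14 replicate 3 (median -0.95). Of 14 podocyte genes 1 fell (median -0.73), 2 without day 14 replicate 3 (median -1.15) and none without sham replicate 3 (median -0.25). Of 18 endothelial genes 2 fell (median -0.34), and 7 without day 14 replicate 3 (median -0.83). With all libraries none of the members of these lists rose. Over all genes 4.58% were lower with all libraries, so 1 fall in a list of 14 is near that share. Without day 14 replicate 3 the share was 8.97%, and without sham replicate 3 it was 725 of 13721 genes.

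Further stable falls were genes of signalling and trafficking. Tollip, an adaptor that dampens Toll-like receptor signalling, had the smallest p of all falls, at 21, 26.2 and 33.8 RPKM at day 14, against 105, 99 and 117 RPKM in sham (log2 fold -1.99 ± 0.21, adjusted p = 2.72e-05 and 0.00854). Rapgef3, the cAMP-activated exchange factor EPAC1, was at 31.1, 22.2 and 25.2 RPKM at day 14, against 172, 149.6 and 93.5 RPKM in sham (log2 fold -2.35 ± 0.33, adjusted p = 0.00037 and 0.023). Ranbp2, a nucleoporin, was at 5.74, 4.75 and 6.68 RPKM at day 14, against 38.6, 25 and 17.1 RPKM in sham (log2 fold -2.07 ± 0.32, adjusted p = 0.00068 and 0.0284). Cyp26b1, which degrades retinoic acid, was at 0.0488, 0.118 and 0.562 RPKM at day 14, against 3.99, 4.61 and 2.32 RPKM in sham (log2 fold -2.5 ± 0.43, adjusted p = 0.00176 and 0.0135). In sham, many genes that fell were high in the pull-down relative to total kidney: 388 of 629 falls (61.7%) had a sham bound mean of at least 2 times the sham unbound mean, against 15.9% of all genes tested. At day 14 this was so for 33 of them. Of the 1195 rises, 609 (51.0%) had a sham bound mean of at most 0.5 times the sham unbound mean, against 13.4% of all genes. These counts use the same sham bound values as the test and are a description.

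Along the course of repair, day 14 was also set against day 7. No gene was called between day 14 and day 7 in bound RNA by limma (868 at an unadjusted p under 0.05), 1140 were called with array weights, and 4 with the replicate number as a block, whose deviations correlated at 0.135, 0.166 and 0.145 between same-numbered libraries of these days. Mean levels in bound RNA were, for Ubd, 0.916 ± 0.403 RPKM in sham (SD, n = 3), then 6.57 RPKM at day 2, 170.2 RPKM at day 7 and 50.6 ± 14 RPKM at day 14. Ccl2 had means of 10 RPKM at day 2, 124 RPKM at day 7 and 30.7 ± 23.5 RPKM at day 14 (log2 fold of day 14 over day 7 -2.13, adjusted p = 0.563). Krt20 was highest at day 2, with means of 181, 52.9 and 16.3 ± 8.54 RPKM at days 2, 7 and 14, and Lcn2 likewise, with 229, 23 and 29.9 ± 24.9 RPKM. Vcam1 was low at day 2, with means of 2.87, 26.5 and 15.4 ± 9.08 RPKM.

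**Figure D4:**
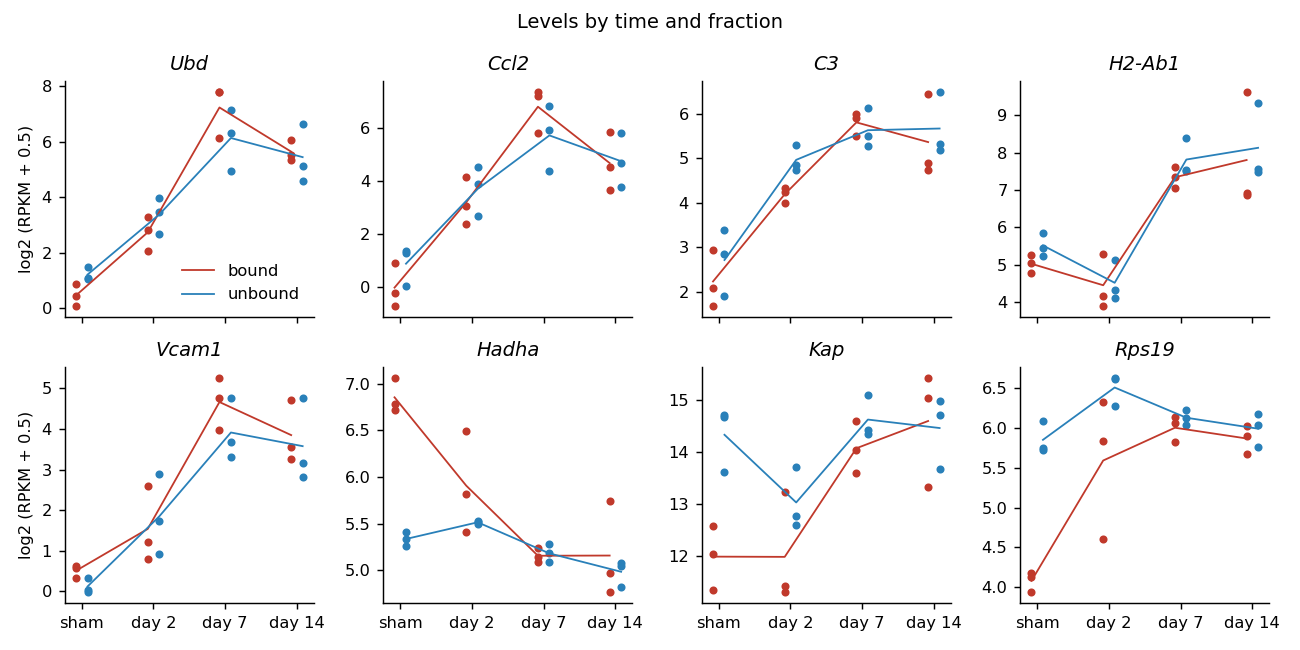
Levels of 8 genes as log2 (RPKM + 0.5) after sham surgery and at days 2, 7 and 14 in bound and unbound RNA; points are libraries and lines join group means. At day 14 the bound levels of Hadha, Kap and Rps19 are close to the unbound ones, while the sham bound levels are above them for Hadha and below them for Kap and Rps19.

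The change at day 14 was compared between bound and unbound RNA in 1 model, which held no term for the mouse. It differed for 27 genes (0.197% of those tested), 12 with a higher change in bound RNA (0.0875%) and 15 with a lower one (0.109%), and for 2267 genes at an unadjusted p under 0.05. Bound and unbound libraries of the same number were taken as 1 mouse, since their deviations from the group means correlated at 0.417, 0.568 and 0.67 at day 14 and at 0.327, 0.421 and 0.334 in sham; with the mouse as a block 862 genes were called. Without day 14 bound replicate 3 the count was 1821 and without sham bound replicate 3 it was 136, but it was 13 without sham bound replicate 1 and 2 without any 1 of the other 9 bound and unbound libraries. Some of the leading rises had far higher means at day 14 than in sham in unbound RNA too. Ubd had an unbound mean of 52.4 RPKM at day 14 and 1.84 RPKM in sham, Ccl2 of 31.3 RPKM at day 14 and 1.49 RPKM in sham, and C3 of 55 RPKM at day 14 and 6.61 RPKM in sham. The unbound libraries of Havcr1 overlapped, at 18.39, 20.65 and 34.3 RPKM at day 14, against 4.323, 3.928 and 24.06 RPKM in sham.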

How the data were processed

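RNA from bound and unbound fractions was prepared with a low-input kit, per the labels' protocols. The submitters' processing notes name STAR 2.0.4b, featureCounts 1.4.5 (Subread) and edgeR. The genome build and whether counting used strand are not given in the sources used here, so reads of overlapping or antisense genes cannot be told apart. The authors deposited RPKM, 1 column per library. Its 41831 lines hold 40750 genes and 1081 identical repeats, which were dropped; 14673 genes are at 0 throughout. Depth was inferred from value steps with GENCODE M21 exon lengths; 73.7% to 76.8% of low values came to whole reads within 0.02 reads, too few to recover counts.

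Values were taken as log2 (RPKM + 0.5), and 1 mean was estimated for each of 8 groups from all 24 libraries (limma 3.58.1, R 4.3.3), for genes with 1 RPKM in at least 3 libraries, with a variance trend and Benjamini-Hochberg adjustment within each of 3 comparisons; the call threshold was 0.05. The code was tested on simulated data. Named genes are the 15 largest rises and falls with no overlap and at least 5 RPKM, up to 6 leading members of each of 50 lists, fixed genes, and the 6 largest differences between fractions each way; some are left out here, and further members serve as examples. The members and lists were chosen with earlier results of these data known. Same-numbered bound libraries of day 14 and sham did not deviate together, so numbers were taken to pair libraries only between fractions. The main fit leaves this pairing out, and the fit with the mouse as a block is an alternative. Between day 14 and day 7 same-numbered libraries correlated only at 0.135, 0.166 and 0.145, and a pairing of these days was not established. Figures were drawn with matplotlib 3.10.9.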

Additional observations from a re-analysis of the deposited data

Results flagged for a closer look

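The change at day 14 against sham differed between bound and unbound RNA for 27 genes by limma's test of the interaction, and 11 of them are given here. Their difference, bound change minus unbound change on the log2 scale, was positive for Calml4 (2.74), Dbi (2.38), Rida (2.26), Slc51b (1.98), Npm3 (1.78) and Tmem176a (1.78). It was negative for Rapgef3 (-2.43), Arhgap18 (-2.42), Ranbp2 (-2.35), Tollip (-2.25) and Spire2 (-2.12). In each of the 6 positive genes the sham bound mean was the low one of the 4 groups. Dbi, which encodes the acyl-CoA-binding protein, had means of 1304 RPKM in day 14 bound, 249 RPKM in sham bound, 1033 RPKM in day 14 unbound and 1137 RPKM in sham unbound RNA (adjusted p = 0.0431). In each of the 5 negative genes the sham bound mean was the high one. Tollip had means of 27 RPKM in day 14 bound, 107 RPKM in sham bound, 21.6 RPKM in day 14 unbound and 18.1 RPKM in sham unbound RNA (adjusted p = 0.00166). With the mouse as a block the adjusted p of all 11 lay between 0.00258 and 0.0156. With the exon length trend removed it stayed under 0.05 for Tollip (0.00571) and Spire2 (0.00118) and was 0.0969 to 0.107 for the others, while the differences themselves were then 1.4 (Npm3) to 2.80 (Calml4) in the positive genes and -1.99 (Ranbp2) to -2.21 (Spire2) in the negative ones. Their exon lengths were 709 to 3810 bases in the positive genes and 2510 to 11728 bases in the negative genes.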

How the results depend on the processing

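Of the values of named genes under alternatives, 2727 kept their direction and side of the threshold, 856 kept the direction but not the call, 2 gained a call and 11 turned round, all of the last in genes never called: with 1 replicate left out Lcn2 ran from -0.0926 (without day 14 replicate 3) to 1.06, Foxm1 from -0.381 to 0.0613 (without sham replicate 3; 0.0229 without day 14 replicate 2), Slc34a1 from -0.22 (without day 14 replicate 2) to 0.629, Pecam1 from -0.789 to 0.148 (without day 14 replicate 2) and Slc5a2 from -0.512 (without day 14 replicate 2; -0.122 without sham replicate 3) to 0.533. Slc5a2 was also -0.152 under median-ratio and quantile scaling alike, -0.0265 with array weights and -0.192 with the length trend removed. For day 14 against sham, array weights gave 5267 calls (3126 higher and 2141 lower), the 12 bound libraries 154 (117 and 37), the 6 libraries 21 (15 and 6; 2306 at an unadjusted p under 0.05), and those with a replicate block 1 (1 and 0). The replicate block over all 24 libraries gave 2026, though library numbers do not pair day 14 with sham (r -0.03, -0.02 and -0.09). Lower genes numbered 1189 with median-ratio scaling and 1012 with quantile scaling; the length trend removed gave 737 higher and 1051 lower. Leaving out 1 replicate gave 788 to 2636 calls, 498 to 1771 higher and 237 to 1231 lower. Between day 14 and day 7 the counts were 6 without a filter, 4 with quantile scaling, 1140 with array weights and 4 with the replicate block, and 0 to 6 with 1 replicate left out. Between fractions they were 5 without a filter, 9 with median-ratio scaling, 14 with quantile scaling, 4636 with array weights, 862 with the replicate block and 7 with the length trend removed, and 2 to 1821 with 1 replicate left out. The cause of these shifts was not tested. Of list medians, 910 moved by less than the spread and 40 by more. Depth limits genes under about 1 RPKM.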

Other observations

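Stable calls outside the lists, chosen here after their values were seen, included Stra6, a membrane receptor of vitamin A uptake. It was at 3.93, 1.75 and 4.26 RPKM at day 14, against 0.239, 0.163 and 0.320 RPKM in sham (log2 fold 2.29 ± 0.49, adjusted p = 0.00611 and 0.0185 by limma with all 24 and with the 12 bound libraries). The groups did not overlap, and Cyp26b1, which clears retinoic acid, fell.

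Other genes of this kind were Nnmt, a nicotinamide methyltransferase, at 7.39, 2.63 and 14.8 RPKM at day 14, against 0.581, 1.5 and 0.309 RPKM in sham (log2 fold 2.59 ± 0.46), and Aoc1, a diamine oxidase, at 12.3, 8.57 and 38.9 RPKM at day 14, against 1.43, 1.43 and 4.51 RPKM in sham (log2 fold 2.65 ± 0.56). Lysosomal genes Lamp2, Ctsz and Npc2 had log2 folds of 1.27 ± 0.19, 1.39 ± 0.21 and 1.45 ± 0.23. Lamp2, a membrane protein of lysosomes, was at 37.1, 52.6 and 32.1 RPKM at day 14, against 15.1, 13.5 and 20.9 RPKM in sham, but its unbound means were 55.3 RPKM at day 14 and 53.9 RPKM in sham.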
